A study of Mus musculus with 2 samples.

Results

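The genes described here are 10 mouse genes of choline uptake and of the early steps of phosphatidylcholine synthesis: the choline transporter-like genes Slc44a1 to Slc44a5, the high-affinity choline transporter Slc5a7, the choline kinases Chka and Chkb, and the cytidylyl transferases Pcyt1a and Pcyt1b. They were taken by gene symbol from an expression array and were chosen by measured values, because Slc44a5 had a large rise at a bright probe, so the Slc44a5 difference selected the list and is given as a description. All 10 had probes, 18 in all, on an array whose probes named 22146 genes. Of these genes, 14016 were measured on both arrays, meaning that a probe was well above background on each, and 7 of the 10 choline genes were among them.

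The study compared hippocampal cultures of ICR mouse embryos with and without tetrodotoxin (TTX), which blocks sodium channels and so silences action potentials. Hippocampi of embryonic day 16.5 were dissociated and grown in medium with 5.5% serum, all cultures received 5 µM Ara-C, a drug that kills dividing cells, and RNA was taken at 12 days in vitro. The control culture had no TTX and the other had TTX for 2 days, at 2 µM in the design text but at 2 mM in the sample's source name, a conflict that the data do not settle. There was 1 Cy3-labelled array per condition, so no difference below has a replicate check or a test, and the precision is limited by having only these 2 arrays.

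Choline enters cells through several carriers. Choline kinases phosphorylate it, the cytidylyl transferases activate phosphocholine to CDP-choline, which is the rate-limiting step, and a cholinephosphotransferase joins it to diacylglycerol to make phosphatidylcholine, the main phospholipid of cell membranes. In cholinergic neurons, choline taken up by the Slc5a7 carrier is instead used to make acetylcholine.

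Each value below comes from a probe of 60 bases, and the sequences of 5 probes are shown because the readings depend on what these probes can bind. The Slc44a5 probe with the higher signal, in array row 4, has a stop codon in all 3 forward frames, was not assigned to coding or untranslated sequence, and is not printed. The probes shown are 1 each from 5 genes, all without a stop codon in at least 1 of the 3 forward frames, as designed on the array, 5′ to 3′. Capitals mark the longest stretch shared with a probe of any gene outside the choline list, with both read as printed. Reverse complements were not searched.
Slc44a5 (chr3:153928447-153928506): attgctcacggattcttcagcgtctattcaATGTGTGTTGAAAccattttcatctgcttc
Slc44a1 (chr4:53573963-53574022): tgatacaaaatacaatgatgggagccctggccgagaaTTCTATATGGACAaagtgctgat
Slc44a4 (chr17:35065243-35065412): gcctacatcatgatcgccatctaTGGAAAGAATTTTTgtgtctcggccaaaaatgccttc
Chka (chr19:3864699-3864758): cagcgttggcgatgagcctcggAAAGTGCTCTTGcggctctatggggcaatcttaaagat
Chkb (chr15:89257068-89257276): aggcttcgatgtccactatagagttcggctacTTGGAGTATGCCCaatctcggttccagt

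Positions are on mm9, as the array files give them. The Slc44a4 and Chkb probes span 170 and 209 bases of genome for 60 bases of probe, so their targets lie across a gap in the genome. Over all 18 probes the longest shared stretch ran from 12 to 16 of the 60 bases, and between probes of different genes of the list from 7 to 9.

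Slc44a5, a little-studied member of the choline transporter-like family, was far higher in the TTX culture at both of its probes. At the probe in array row 4 (chr3:153934553-153934612) the quantile-normalized signal was 1512 in control and 14765 under TTX. The log2 difference, TTX minus control, was 3.29 with a scanner error of 0.20, a 9.76-fold difference. At the second probe, in row 349, the signal was 48.2 in control and 395 under TTX, a log2 difference of 3.03 with an error of 0.23, or 8.19-fold. The probes lie 6106 bases apart and their differences were within 0.25 log2 of each other. The scanner error is the spot error that the Feature Extraction software reports, combined over both arrays; it covers the reading of a spot and not the spread between cultures. Intervals of 1.96 errors ran from 2.89 to 3.69 and from 2.58 to 3.48.

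Slc44a5 ranked 4 of 14016 genes by its rise, and 1 of the 2713 genes whose mean log2 signal lay within 1 of its own, of which 27 were at least 2-fold higher. It was the only choline gene at least 2-fold higher, and 0 of the 7 measured were at least 2-fold lower. Over all measured genes, 2.09% were at least 2-fold higher and 3.4% at least 2-fold lower; since Slc44a5 chose the list, nothing is read from its count of 1. The other 6 measured genes had log2 differences from -0.36 to 0.44 with a median of 0.00, against 0.01 for all genes, whose quartiles were -0.23 and 0.24. Without Slc44a5 the choline genes therefore lay about where most genes of the array lay.

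**Figure D1:**
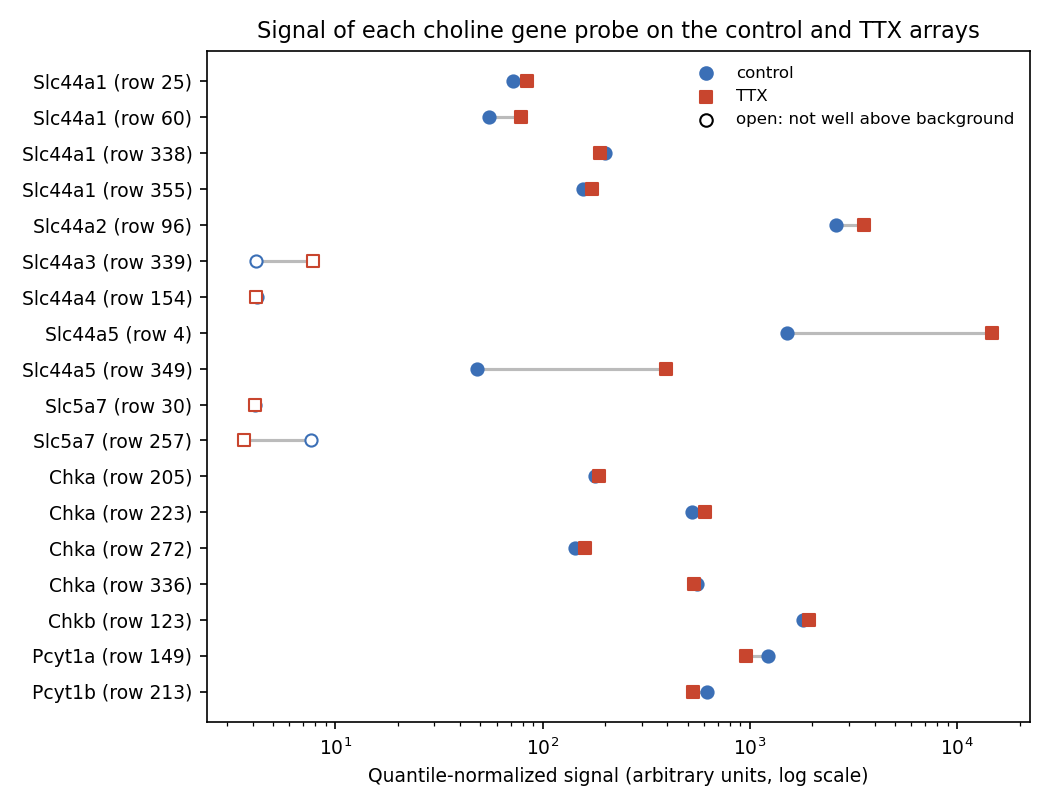
Quantile-normalized signal, in arbitrary units on a log axis, of each of the 18 probes of the 10 choline genes on the control array (circles) and the TTX array (squares); open symbols were not well above background. The Slc44a5 pairs are the widest gaps among filled symbols, from 1512 to 14765 and from 48.2 to 395, while the 4 probes of Slc44a3, Slc44a4 and Slc5a7 are open on both arrays.

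The other transporters of the family that were measured, Slc44a1 and Slc44a2, did not share this size of difference. Slc44a2, a choline carrier of the plasma membrane and of mitochondria, had a signal of 2611 in control and 3541 under TTX at its only probe (chr9:21159407-21159466). Its log2 difference was 0.44 with an error of 0.20, an interval from 0.04 to 0.84, and 12.4% of all genes were at least as far up. It and Slc44a5 were the only choline genes whose interval left out 0, as it did for 27.3% of all genes. With spike-in scaling, with 75th percentile scaling and without normalization it was 0.27, 0.34 and 0.33, all within 1.96 errors of 0.

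Slc44a1, the widely expressed choline carrier that supplies phosphatidylcholine synthesis, had 4 probes along chromosome 4. Its brightest probe (chr4:53635105-53635164) read 199.8 in control and 188.7 under TTX, a log2 difference of -0.08 with an interval from -0.49 to 0.33. The probe printed above, annotated to the same transcript, read 156 and 173, a difference of 0.15. Another probe, in row 25, read 71.9 and 83.7, a difference of 0.22 with an interval from -0.24 to 0.67. The 4 probes did not share a sign, and the gene's value became 0.20 when the probes were averaged.

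The fourth Slc44a1 probe, in row 60 (chr4:53562876-53562935), is annotated to a different transcript of the gene. It read 55.1 in control and 78.3 under TTX, a difference of 0.51 with an interval from 0.03 to 0.99. Differences at this signal moved with the spot's place on the array: rises of 2-fold or more were seen at 9.75% of 923 probes of like signal in rows 1 to 96, but at 1.14% of 969 in rows 289 to 384. The part of spot position in this Slc44a1 difference was not tested.

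For Slc44a5 the same comparison was made, since its first probe lies in row 4. A rise of 2-fold or more was seen at 0.45% of 444 probes of like signal in rows 1 to 96, and their median difference was 0.00, with the 5th and 95th percentiles at -0.59 and 0.47. Its second probe lies at the far end, in row 349, where 2.86% of 873 probes of like signal had such a rise. The Slc44a5 difference was 3.29 in row 4 and 3.03 in row 349, and the part of spot position in it was not tested.

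**Figure D2:**
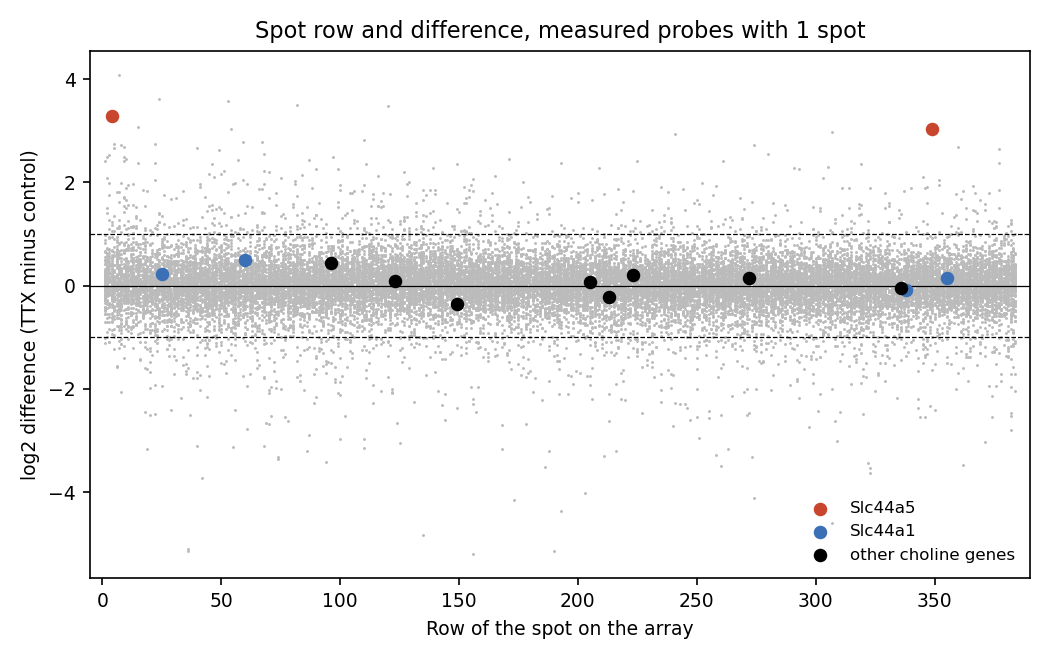
Log2 difference (TTX minus control) against the row of the spot, from 1 to 384, for measured probes with 1 spot (grey), with Slc44a5 in red, Slc44a1 in blue and the other choline genes in black; dashed lines mark 2-fold. The red points stand at 3.29 in row 4 and 3.03 in row 349, and grey points above 1 are denser in the first rows.

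Slc44a3, Slc44a4 and Slc5a7 were not well above background on either array and have no difference here. Slc44a4, known as a carrier of choline and of thiamine pyrophosphate in epithelia, read 4.20 in control and 4.15 under TTX. The Slc44a3 probe (chr3:121162843-121162902) read 4.16 and 7.82. Both probes of Slc5a7, the carrier that marks cholinergic terminals, were at this floor, at 4.08 and 4.11 (chr17:54413708-54413767) and at 7.68 and 3.64 (chr17:54413269-54413328). The lowest signals that counted as above background were 15.98 in control and 19.66 under TTX, so these 3 genes were not detectable at the depth of the arrays, which does not show that they were absent.

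The choline kinases, which commit choline to the CDP-choline pathway, differed little. Chka had 4 probes, and its brightest (chr19:3893815-3893874) read 525 in control and 604 under TTX, a log2 difference of 0.20 with an interval from -0.20 to 0.60. Its other probes gave 179 and 187, 144 and 160, and 555 and 540, which are differences of 0.06, 0.15 and -0.04. Chkb, the second kinase isozyme, read 1811 in control and 1924 under TTX at its printed probe. Its difference was 0.09 with an interval from -0.31 to 0.49, and it fell below 0 with 75th percentile scaling, with spike-in scaling and without normalization, to -0.10 at the lowest.

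The cytidylyl transferases had the lowest log2 differences of the measured choline genes. Pcyt1a, which encodes the widely expressed alpha isoform, read 1224 in control and 956 under TTX (chr16:32472042-32472101). This is a log2 difference of -0.36 with an interval from -0.76 to 0.04, or 1.28-fold higher in control, and 17.0% of all genes were at least as far down. Pcyt1b, the isoform prominent in brain, read 621 and 530 (chrX:90994629-90994688), a difference of -0.23 with an interval from -0.63 to 0.17 and 25.2% of genes as far down. Both stayed below 0 under all 8 other ways of processing, from -0.49 to -0.34 for Pcyt1a and from -0.31 to -0.23 for Pcyt1b. Each had 1 measured probe, so the looser and stricter filters and the mean over probes could only repeat its value. Neither value lay beyond 1.96 scanner errors.

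**Figure D3:**
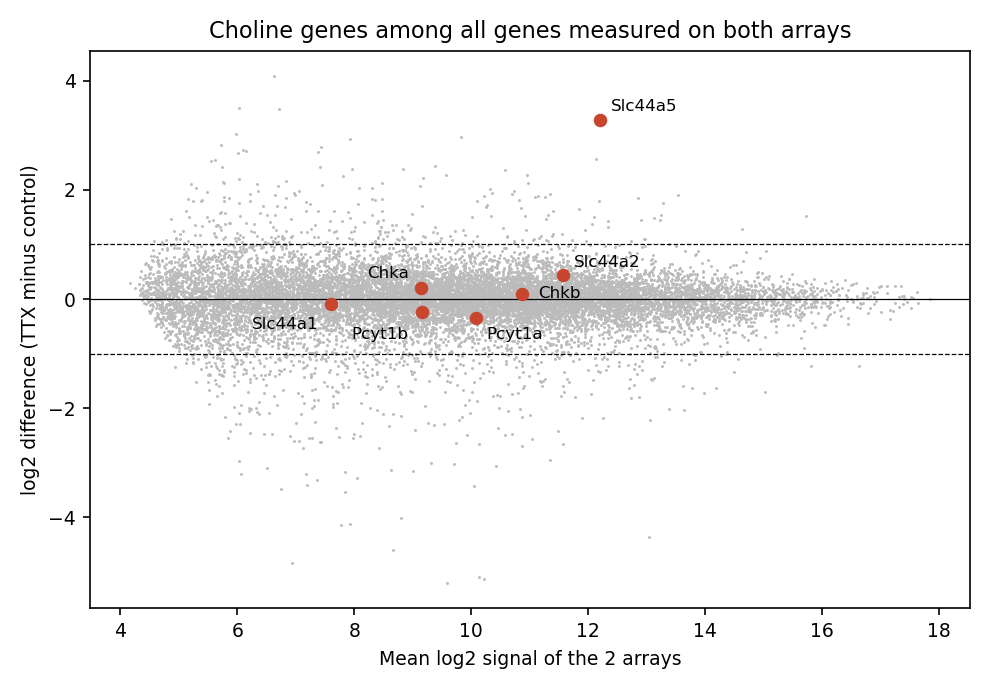
Log2 difference (TTX minus control) against the mean log2 signal of both arrays for the 14016 measured genes (grey) and the 7 measured choline genes (red); dashed lines mark 2-fold. Slc44a5 stands alone at 3.29 on the bright side of the plot, and the other 6 lie between -0.36 and 0.44, inside the body of grey points.

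How far the processing moved these values was read from 8 alternatives (3 other scalings, another background correction, the authors' deposited values, a looser and a stricter filter on dim probes, and the mean over a gene's probes). Slc44a5 ranged from 3.11 with spike-in scaling to 3.29. Slc44a2 ranged from 0.27 to 0.46 and Chka from 0.09 to 0.21, both above 0 throughout. Slc44a2, Chkb, Pcyt1a and Pcyt1b had 1 measured probe each, so the filters and the mean over probes gave their main value again. Slc44a1 ranged from -0.10 to 0.20, and it and Chkb were the only measured choline genes to change sign. With quantile normalization 4 of the 7 lay above 0, and with each of the 3 other scalings 3 did.

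**Figure D4:**
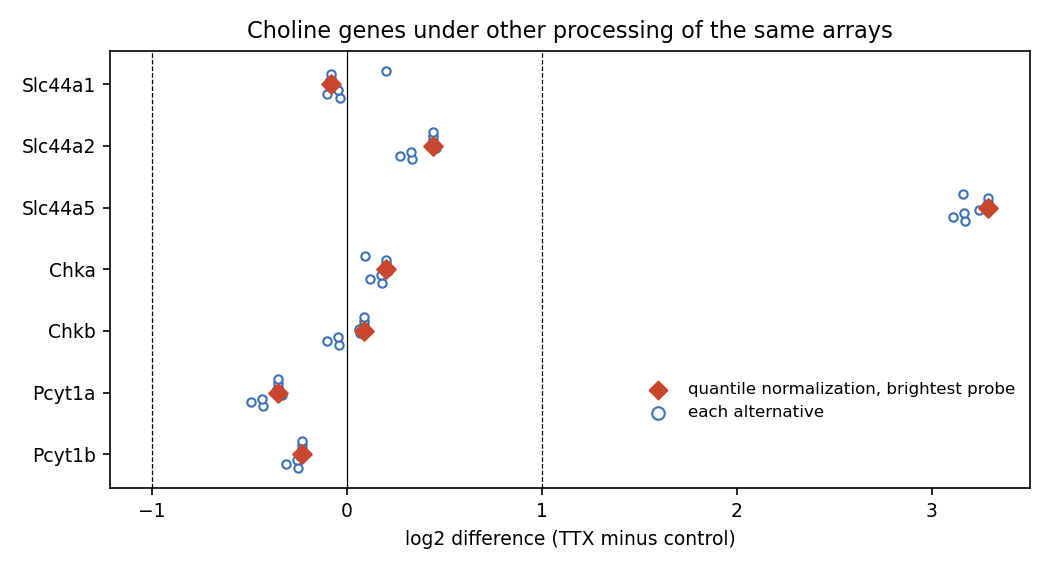
Log2 difference (TTX minus control) of the 7 measured choline genes with quantile normalization and the brightest probe (red diamonds) and under each alternative (blue circles); dashed lines mark 2-fold. Slc44a5 keeps to 3.11 and above, Slc44a1 and Chkb have circles on both sides of 0, and none of the other 6 genes reaches 2-fold.

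The rest of choline and phosphatidylcholine metabolism was read from a list of 61 other genes, all on the array. Of these, 48 were measured on both arrays, 5 were above background on 1 array only and 8 on neither. At least 2-fold higher was 1 of the 48, against 2.09% of all genes, and at least 2-fold lower was 1, against 3.4%. On the quantile scale 26 lay above 0 and 22 below, with a median of 0.03; with spike-in scaling 19 lay above 0 and the median was -0.14, where that of all genes was -0.09. The list as a whole therefore gave counts near those of the array.

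The last step of the CDP-choline pathway is made by Chpt1 and Cept1. Chpt1 read 275 in control and 317 under TTX, a difference of 0.20, and Cept1 read 3149 and 2865, a difference of -0.14. Of the enzymes that make the diacylglycerol they use, Agpat3 differed most, with 2920 and 2178, a difference of -0.42, followed by the phosphatidate phosphatase Lpin2, with 778 and 1034, a difference of 0.41. Agpat4 read 15072 and 11915, a difference of -0.34, and none of the 9 measured reached 2-fold.

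Of the 7 other carriers of choline, 2 were measured on both arrays. Flvcr1, reported to carry choline, read 132 in control and 159 under TTX, a difference of 0.27, and the carnitine carrier Slc22a5 differed by 0.09. The largest gap was that of Slc25a48, a mitochondrial carrier, which was above background under TTX only, at 87.6 against 3.99, and was at least 5.48-fold higher there. That bound sets the TTX signal against the lowest signal above background on the control array. Flvcr2, Slc22a2 and Slc22a3 were above background on neither.

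In the parallel branch that makes phosphatidylethanolamine, 5 of the 6 measured genes lay below 0 under quantile normalization and under each of the 3 other scalings. The exception was Etnk2, an ethanolamine kinase, at 293 in control and 697 under TTX. It was 2.38-fold higher, with a log2 difference of 1.25, and its probes gave 1.06 and 1.25. Pcyt2, the cytidylyl transferase of this branch, read 24410 and 15414, a difference of -0.66, and its probes ran from -0.79 to -0.66. Phospho1, a phosphatase of phosphocholine and phosphoethanolamine, read 64.1 and 32.4, a difference of -0.98 that became -0.39 with the normexp background correction. Pemt, which methylates phosphatidylethanolamine to phosphatidylcholine, differed by -0.15 and Etnk1 by -0.20.

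Ptdss1, which swaps the choline of phosphatidylcholine for serine, differed by 0.00, or -0.21 with spike-in scaling. Ptdss2, which acts on phosphatidylethanolamine, differed by -0.07, and the phosphatidylserine decarboxylase Pisd by -0.07, or 0.01 with normexp. Among 13 measured genes that break phosphatidylcholine down or release choline, 9 lay above 0, but only 6 did with spike-in scaling. Lypla2, a lysophospholipase, read 15645 in control and 10365 under TTX, a difference of -0.59. Enpp2, the secreted lysophospholipase D known as autotaxin, read 737 and 586, a difference of -0.33. Pnpla6, a phospholipase of neurons, read 3653 and 4566, a difference of 0.32, and Pla2g4a was above background in control only, at 62.4 against 21.9, at least 2.85-fold lower under TTX. Enpp6 was above background on neither array.

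Lpcat3, which puts fatty acyl chains back on lysophosphatidylcholine, read 1556 in control and 927 under TTX, a difference of -0.75, while Lpcat1 read 542 and 669, a difference of 0.30. Lpcat4 was above background under TTX only, with a bound of 1.55-fold higher, a scanner error of 1.48 log2 and its spot in row 83. The part of spot position in this Lpcat4 difference was not tested. Lpcat2 was above background on neither array. Of the sphingomyelin genes, which pass phosphocholine to and from ceramide, Smpd3 read 7819 and 5711, a difference of -0.45, and Smpd4 and Smpd2 differed by 0.45 and 0.44. Sgms2 was above background on neither array. Of the genes that turn choline into betaine and use it, Aldh7a1 read 1634 and 2064, a difference of 0.34. Bhmt was above background under TTX only, at 26.7 against 14.7, with a bound of 1.67-fold higher and a scanner error of 0.45 log2. Chdh was above background in control only, at 20.9 against 11.2, with a bound of 1.06-fold lower under TTX and an error of 0.70. These bounds leave out the scanner error. Bhmt2 was above background on neither array.

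**Figure D5:**
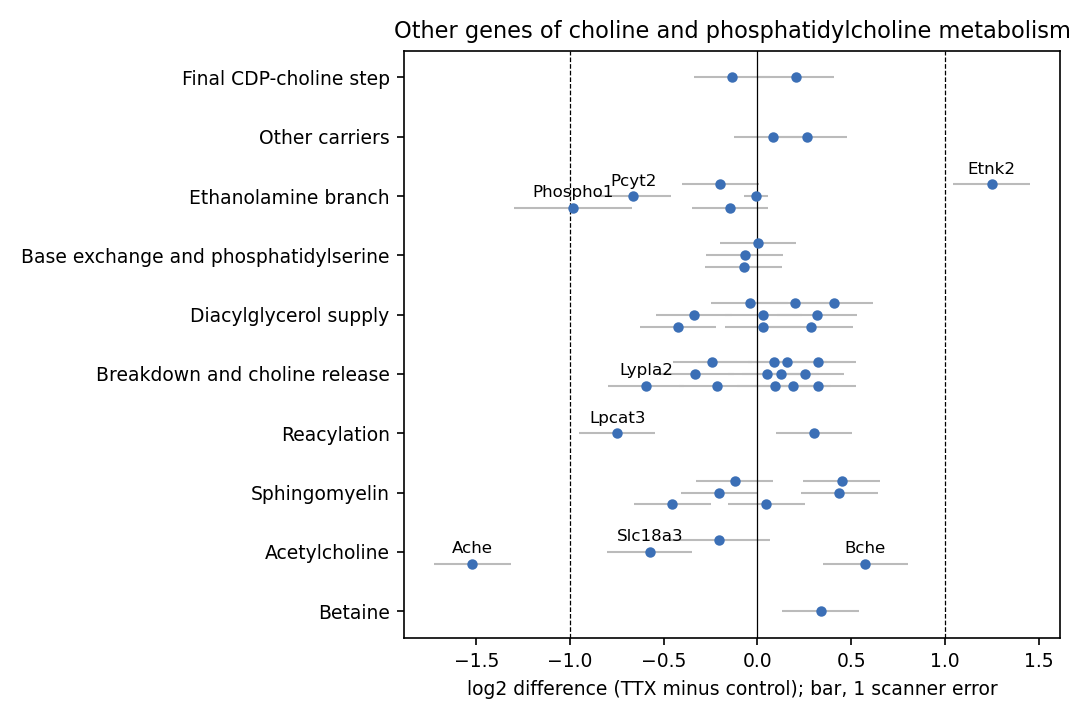
Log2 difference (TTX minus control) of the 48 measured genes of the wider list, by role; bars are 1 scanner error and dashed lines mark 2-fold. Etnk2 at 1.25 and Ache at -1.52 are the only points beyond the lines, and Phospho1 lies just inside at -0.98.

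Acetylcholine genes hold the lowest value of the list. Ache, the esterase that splits acetylcholine and so frees choline, read 3982 in control and 1387 under TTX. It was 2.87-fold lower under TTX, a log2 difference of -1.52, and its probes gave -1.58 and -1.52. The vesicular carrier Slc18a3 read 118 and 79.6, a difference of -0.57 that became -0.32 with normexp, and Chat, the enzyme that makes acetylcholine, read 49.8 and 43.2, a difference of -0.21. Bche, the second cholinesterase, read 64.9 and 96.7, a difference of 0.58, or 0.27 with normexp.

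Markers of cell types were read beside these values. Of the markers of cholinergic neurons, Slc5a7, Isl1, Lhx8 and Gbx1 were not above background on either array, and the summed signal of the 3 measured ones went from 1049 to 255. Most of that sum was the neurotrophin receptor Ngfr, at 881 and 133, a difference of -2.73. The 7 neuronal markers were all measured, from 127745 to 117871 in sum, with Tubb3 at 0.47 and Rbfox3 at -0.81. For astrocytes 7 of 8 were measured, from 45904 to 55110, with Gfap at 0.78 and Aldh1l1 at -0.14. Of the 7, 6 lay above 0, against 51.1% of all genes. Gja1 was above background under TTX only, at least 1.43-fold higher, with its spot in row 66. The 5 neural progenitor genes went from 1464 to 2150, with the proliferation gene Mki67 at 3.48 and Sox2 at 0.09. For the oligodendrocyte lineage 5 of 10 were measured, with a ratio of sums, TTX over control, of 1.18, from Mog at -0.18 to Olig1 at 0.78. Olig2, Sox10, Pdgfra and Mobp were above background on neither array. Mag was above background in control only, with a bound of 1.05-fold lower under TTX and a scanner error of 1.02 log2. Microglia had 5 of 7, with a ratio of 0.947, from Csf1r at -0.36 to Laptm5 at 0.89, and Cx3cr1 and P2ry12 were not above background. Laptm5 read 17.3 in control, where the lowest signal above background was 15.98, and 32.1 under TTX, with a scanner error of 0.38. The 3 Csf1r probes ran from -1.08 to 0.27. Endothelial and pericyte markers had 3 of 6 at a ratio of 0.901, from Kdr at -0.24 to Rgs5 at 0.23. The 2 Kdr probes did not share a sign, at -0.24 and 0.24. Fibroblast markers had 4 of 5 at a ratio of 1.22, from Col1a2 at 0.11 to Dcn at 0.33. The fibroblast marker left out of that sum, Lum, was above background under TTX only, at 48.5 against 11.7, and was at least 3.04-fold higher there. Its spot lies in row 46 and had a scanner error of 0.48 log2. The part of spot position in the Lum and Gja1 differences was not tested. In bulk RNA, fewer cells of a type and less RNA per cell cannot be told apart, and the part of cell makeup in the Slc44a5 difference was not tested.

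The genes most like Slc44a5, taken as the 5 with a mean log2 signal within 1 of its own and the nearest difference, were Csrp2, Adra2a, Rab3b, Cd24a and Gm3893. Csrp2, which encodes a LIM-domain protein, was the nearest, at 1861 in control and 10950 under TTX, a difference of 2.56. The others had differences of 1.92, 1.88, 1.86 and 1.79. Gm3893, at 1.79, had a second probe at 1.06. None of the 5 genes came within 0.73 log2 of Slc44a5, and this likeness rests on 1 pair of arrays.

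Genes beside Slc44a5 on chromosome 3 that were measured did not share its difference. Acadm, the adjacent protein-coding gene on one side, read 1508 in control and 1498 under TTX, a difference of -0.01, and Rabggtb beyond it differed by 0.03. Lhx8, adjacent on the other side, was not above background on either array. Beyond Lhx8, Tyw3 read 155 and 186, a difference of 0.27, and Cryz 2520 and 2457, a difference of -0.04. Farther out, Asb17, Msh4 and Erich3 had no probe measured on both arrays.

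The Slc44a5 promoter is shown because this gene's rise chose the list and was larger than that of its measured neighbours and family members. The 250 bases before the annotated start, on the plus strand of GRCm38.p6 as RefSeq gives it, hold 15 CG pairs, in capitals.
Slc44a5 promoter (chr3:153973186-153973435): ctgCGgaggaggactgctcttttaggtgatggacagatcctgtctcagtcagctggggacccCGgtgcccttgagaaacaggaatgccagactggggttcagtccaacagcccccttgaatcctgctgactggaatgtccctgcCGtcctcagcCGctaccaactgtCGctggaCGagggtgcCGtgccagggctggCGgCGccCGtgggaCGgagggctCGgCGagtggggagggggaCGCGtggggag

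Of these CG pairs, 13 lie in the 125 bases next to the start and 2 in the 125 before, and the median over 32851 mouse promoters of this length is 6. As many or fewer were held by 74.6% of these promoters. Slc44a1, Pcyt1a and Chka each have a promoter with more, 38, 28 and 24, and the other choline genes have fewer. Searched on both strands, the Slc44a5 window held no GC box (GGGCGG, in 32.7% of all promoters), no cAMP response element (TGACGTCA, in 1.55%), no E-box (CACGTG, in 6.02%) and no TATA box (TATAAA, in 12.4%). Among the 10 choline genes, 7 had a GC box in a promoter, all but Slc44a5, Slc5a7 and Pcyt1b, and Chkb and Slc5a7 had a TATA box. None of the 10 had the cAMP response element or the E-box. A match or its lack describes only the letters of this window.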

How the data were processed

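Cy3-labelled total RNA of 2 cultures was read on Agilent 8x60K arrays, 1 array per group; groups were taken from the sample titles. The authors' deposited scanner files give linear spot intensity, and the processed intensity is background-subtracted, per the file headers. The Feature Extraction software has version 9.5.1.1 per the submitters' processing notes and 10.7.1.1 per the file headers. The deposited value table also holds linear intensity; its medians were 24.9 on both arrays, and its log2 differences correlated at 0.9999 with those computed here.

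Of 62976 spots, 59305 were not controls. Outlier spots (131 in control, 170 under TTX) were left out, and 0 were saturated. Processed intensities were quantile normalized (the method the design text names), log2-transformed and averaged over repeated spots, with Python 3.11.15, numpy 2.4.6 and pandas 2.3.3. A probe counted as measured if, on each array, a share of 0.5 or more of its spots was well above background (27398 of 55679 probes), and a gene took its brightest measured probe. RefSeq symbols (GRCm38.p6, names only) named 30847 probes. Probe positions are those of mm9 in the files. A gene above background on 1 array only has a bound against the higher of its own dim signal and the lowest signal above background on that array. The bound leaves out the scanner error.

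With 1 array per group there was no test, and a size rule of 2-fold was used. Differences of repeated spots of 251 probes had an SD of 0.148 log2, from 0.307 among the dimmest probes to 0.0624 among the brightest. The calculation was tested on simulated data. The alternatives tried were scaling to the 75th percentile, spike-in scaling (7 spike-in probes, median difference 0.06), no normalization, normexp (limma 3.58.1, R 4.3.3, offset 50), the deposited values, no filter, a filter at the 25th percentile, the mean over probes, and 1.5-fold and 3-fold rules.

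The genes, the wider list and the markers were chosen with earlier results of these data known. The text names every choline gene, the wider list's genes past 2-fold and up to 3 of the largest differences per role, the 5 genes most like Slc44a5, and the highest and lowest marker of each list. Genes above background on 1 array or neither are named in addition, as are Etnk1 and Pemt; a few list genes are not reported here. No column of per-sample values was left out. Nothing in the sources used here gives the array's transcript models, so exons and UTRs were not assigned.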

Additional observations from a re-analysis of the deposited data

How the results depend on the processing

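No paired analysis was possible because each group has 1 array. Spike-in scaling moved the median of the 7 choline genes from 0.09 to -0.10 and that of the wider list to -0.14. Counts of all genes higher and lower were 147 and 301 with normexp, 1062 and 1368 without a filter, 1073 and 1211 at 1.5-fold, and 94 and 163 at 3-fold. Without a filter 1 choline gene was at least 2-fold lower, Slc5a7, which was not above background, and the wider list had 4 higher and 2 lower. At 1.5-fold the wider list had 5 lower, and at 3-fold it had 0 higher and 0 lower. The counts at 1.5-fold and 3-fold differ by the size asked for. Without a filter, genes not above background were counted too. The causes of the changes without a filter, with normexp and with spike-in scaling were not tested. Of 246 values of 31 single genes under these alternatives, 5 moved beyond 1 scanner error, and no gene past 2-fold changed sign. The 246 hold repeats that could not move, such as the mean over probes of a gene with 1 measured probe. Slc44a1, Chkb, Ptdss1 and Pisd, all with main differences near 0, did change sign under at least 1 alternative. The values that moved were Ptdss1 to -0.21 with spike-in scaling, Phospho1 to -0.39, Bche to 0.27 and Slc18a3 to -0.32 with normexp, and Slc44a1 to 0.20 with the mean over probes. Dim signal limits the Slc44a1 probe in row 60 most: repeated spots at its signal had an SD of 0.307 log2, against 0.0624 at that of the Slc44a5 probe in row 4.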

Other observations

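Of the 14016 measured genes, 3 had a larger rise than Slc44a5. Tmtc2, which encodes a transmembrane protein with TPR repeats, read 23.9 in control and 406 under TTX, a log2 difference of 4.09. Atp6v0d2, a subunit of the vacuolar proton pump, read 19.5 and 221, a difference of 3.50. Mki67, a gene of dividing cells, read 31.6 and 352, a difference of 3.48. These 3 genes were chosen after their values were seen. The lowest signal that counted as above background in control was 15.98, so all 3 were dim there. Their spots lie in rows 7, 82 and 120 of 384, and the part of spot position in these differences was not tested.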
